A study of Mus musculus with 15 samples.

Results

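Transcripts of neurons were measured in cells that had been sorted from mouse brain as smooth muscle cells and pericytes, and in explants of aorta. Camk2a, Snap25, Syt1, Nefl, Nrgn, Gad1, Stmn2 and Rbfox3 were taken by name, with all probe sets that carry 1 of these symbols alone. They had 22 of the 45101 probe sets on the array and are 8 of 18193 genes with at least 1 probe set of a single symbol. Camk2a had 6 probe sets, Syt1 4, Rbfox3 3, Snap25, Nefl, Gad1 and Stmn2 2 each, and Nrgn 1. Values below are from the brightest probe set of each gene over all 15 arrays unless another is named.

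Neurons signal to each other at synapses, where calcium entry makes vesicles in the sending cell fuse with its membrane and release transmitter, and where receptors and kinases in the receiving cell respond. Their axons are supported by neurofilaments and microtubules. In the brain, capillaries and arterioles run close to neurons and glia. The outer layer of the aorta carries axons of sympathetic nerves, whose cell bodies lie in ganglia outside the vessel.

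The arrays were Affymetrix mouse 430 2.0, and all RNA came from male C57BL6J mice 10 to 12 weeks old. Sorted brain cells were from 5 mice with no intact copy of Notch3 (Notch3 -/-, replicates A, B, C, D and F) and from 4 mice with 1 (Notch3 +/-, replicates E, G, I and H), by the study's design text. Aorta explants gave 3 Notch3 -/- arrays (5558, 5559 and 6167) and 3 Notch3 +/- arrays (5556, 5561 and 6166). Notch3 encodes a receptor of vascular mural cells, and with no wild-type array analysed here the genotype comparisons are between no copy and 1 copy. RNA of the brain cells was purified on columns alone, and that of aorta with Trizol followed by columns, so tissue and extraction cannot be told apart. The labels do not tie the aorta arrays to separate animals, and aorta p-values therefore cover the spread between these samples only.

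The deposited intensities had been scaled so that each array has a target of 150, and 49.0% to 54.6% of values were under 50 in brain and 54.3% to 57.2% in aorta. Of the 8 genes, 0 to 2 lay under the array's median in brain and 3 to 6 in aorta. Notch3 was lower in every Notch3 -/- array of its tissue (210 ± 37.1 in Notch3 -/- and 2616 ± 222 in Notch3 +/- brain cells, SD). Mural markers were bright in brain, with Rgs5 at 9961 in Notch3 -/- and 13485 in Notch3 +/- cells and Pdgfrb at 6711 and 10227 (means). Genes of other brain cells were bright there too: the myelin gene Mbp averaged 23104 in Notch3 -/- and 22389 in Notch3 +/- cells, and the endothelial gene Cldn5 15019 and 15991. Aorta +/- replicate 5556 stood apart from the other aorta arrays at neuronal genes, and values without it are given where it decides a call or moves a named difference by over 1.5 times. In whole-population RNA like this, more neuronal cells or fragments and more RNA in each cannot be told apart.

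A pair of promoters is printed here because Syt1 was high on that aorta array and Rbfox3 was not. Each is the 250 bases before a gene start in RefSeq (GRCm38.p6), on the minus strand of chr10:109010976-109011225 for Syt1 and of chr11:118761042-118761291 for Rbfox3. Capitals mark the only match among 3 short motifs that were searched on both strands.
Syt1: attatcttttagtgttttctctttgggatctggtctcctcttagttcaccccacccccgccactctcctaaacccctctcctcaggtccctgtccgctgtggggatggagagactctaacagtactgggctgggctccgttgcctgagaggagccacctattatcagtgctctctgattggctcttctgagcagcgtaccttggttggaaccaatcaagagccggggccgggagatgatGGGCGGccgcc
Rbfox3: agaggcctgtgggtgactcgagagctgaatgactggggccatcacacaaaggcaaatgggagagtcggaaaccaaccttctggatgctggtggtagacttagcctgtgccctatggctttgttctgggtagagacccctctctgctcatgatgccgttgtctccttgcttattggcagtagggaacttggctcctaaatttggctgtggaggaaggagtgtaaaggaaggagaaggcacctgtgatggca
The match in Syt1 is to CCGCCC, a GC box, read on the other strand, and CCGCCC on either strand was in 32.7% of 32851 RefSeq windows of this length. Neither window held TATAAA (12.4% of windows) or TTCAGCACC, an arm of the site bound by Rest, a repressor of neuronal genes (0.301%). The Syt1 window held 8 CG pairs and the Rbfox3 window 3. RefSeq has a second start of Syt1, whose window (minus strand of chr10:109009112-109009361) is not printed and held none of the 3 motifs and 5 CG pairs. Nrgn and Gad1 were not high on that aorta array either, yet their windows, not printed, each held CCGCCC. They had 11 and 17 CG pairs, and the Gad1 window also held TATAAA. In these genes CCGCCC thus did not go with a high value on that array. A match or its absence describes these letters only.

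Camk2a and Nrgn were higher in brain cells than in aorta in both genotypes. Camk2a, the alpha subunit of a calcium-activated kinase concentrated in the receiving side of forebrain synapses, read 561, 537, 361, 604 and 715 in Notch3 -/- brain cells (A, B, C, D and F) and 339, 469, 1005 and 586 in Notch3 +/- brain cells (E, G, I and H). In aorta it read 3.41, 2.87 and 4.58 in Notch3 -/- (5558, 5559 and 6167) and 12.9, 3.64 and 18.3 in Notch3 +/- arrays (5556, 5561 and 6166). Every brain array lay above every aorta array, and the brain genotypes overlapped, with replicate I the highest and E the lowest. The difference, on a log2(value + 16) scale that understates folds of dim probe sets, was 4.83 in Notch3 -/- arrays (SE 0.20, 28.5-fold, limma adjusted p = 5.91e-09) and 4.41 in Notch3 +/- arrays (SE 0.34, 21.2-fold, adjusted p = 6.99e-06).

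The other 5 probe sets of Camk2a were dimmer and separated the tissues less. Probe set 1443876_at was higher in brain in both genotypes (log2 0.71 in Notch3 -/- and 1.36 in Notch3 +/-, limma adjusted p = 0.0346 and 0.0128). Probe set 1441734_at passed in Notch3 -/- arrays (log2 0.97, adjusted p = 0.00941) and missed 5% in Notch3 +/- arrays (1.05, adjusted p = 0.0841). The remaining 3 passed in neither genotype. As the mean of its 6 probe sets, Camk2a was higher in brain by 1.25 in Notch3 -/- and by 1.38 in Notch3 +/- arrays (limma adjusted p = 0.0002 and 0.00214).

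Nrgn encodes neurogranin, a small postsynaptic protein that holds calmodulin. It read 286, 208, 156, 247 and 324 in Notch3 -/- and 189, 165, 287 and 283 in Notch3 +/- brain cells, against 65.3, 110.0 and 152 in Notch3 -/- and 76.3, 69.6 and 76.0 in Notch3 +/- aorta. The lowest brain array, C, lay just above the highest aorta array, 6167. Brain was higher by 1.08 in Notch3 -/- (SE 0.26, 2.11-fold, limma adjusted p = 0.00549) and by 1.42 in Notch3 +/- arrays (SE 0.22, 2.68-fold, adjusted p = 0.000709). Nrgn was the one of the 8 whose aorta values were higher on average in Notch3 -/- (109 ± 43.6) than in Notch3 +/- arrays (74.0 ± 3.82, SD, n = 3 each), a difference that did not pass (log2 0.42, limma adjusted p = 1.0).

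**Figure D1:**
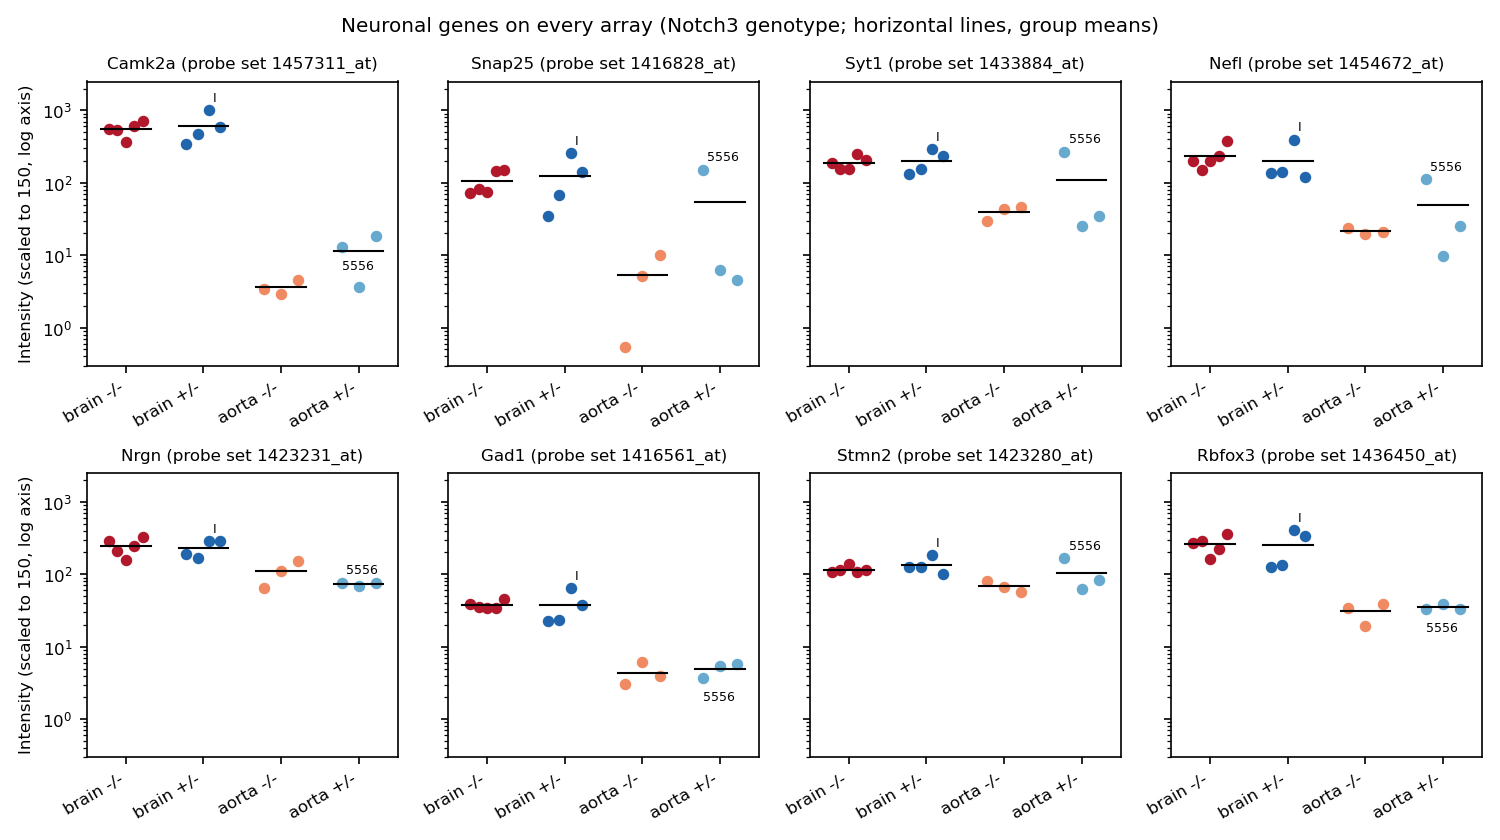
Intensity (scaled to 150, log axis) of the brightest probe set of each gene on all 15 arrays, 1 point per array, with horizontal lines at group means and replicates I (brain Notch3 +/-) and 5556 (aorta Notch3 +/-) labelled. Brain points of Camk2a lie between 339 and 1005 and aorta points between 2.87 and 18.3, while 5556 reaches brain levels for Snap25, Syt1 and Stmn2.

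Snap25 and Syt1 act together on the sending side of the synapse. Snap25 is a membrane protein of the SNARE complex that fuses vesicles, and Syt1 is the calcium sensor on the vesicle. Snap25 read 71.9, 83.3, 75.1, 146 and 148 in Notch3 -/- and 34.7, 67.2, 256 and 142 in Notch3 +/- brain cells, against 0.542, 5.23 and 10.1 in Notch3 -/- and 152, 6.34 and 4.48 in Notch3 +/- aorta. All 5 Notch3 -/- brain arrays lay above all 3 Notch3 -/- aorta arrays. Among Notch3 +/- arrays the groups overlapped, since 5556 at 152 was above brain replicates E, G and H. Brain was higher by 2.47 in Notch3 -/- arrays (SE 0.28, 5.55-fold, limma adjusted p = 2.47e-05). In Notch3 +/- arrays the difference was 1.45 (SE 0.76, adjusted p = 0.189), and 2.44 without 5556 (adjusted p = 0.0163).

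Syt1 read 186, 154, 157, 246 and 208 in Notch3 -/- and 130.1, 154, 288 and 231 in Notch3 +/- brain cells, against 29.4, 43.8 and 46.8 in Notch3 -/- and 269, 25.4 and 35.1 in Notch3 +/- aorta. Here too 5556 lay above 3 of the 4 Notch3 +/- brain arrays, and the other 5 aorta arrays lay below all 9 brain arrays. Brain was higher by 1.88 in Notch3 -/- arrays (SE 0.19, 3.67-fold, limma adjusted p = 9.24e-06), and by 1.30 in Notch3 +/- arrays (SE 0.58, adjusted p = 0.124; 2.18 and 0.00126 without 5556). The dimmer probe sets did not repeat this: none of the other 3 of Syt1 passed in either genotype. The second probe set of Snap25 passed in Notch3 -/- (log2 0.65, limma adjusted p = 0.0334) and missed 5% in Notch3 +/- arrays (1.04, adjusted p = 0.111).

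Nefl and Stmn2 belong to the axon's skeleton. Nefl, the light subunit of neurofilaments, read 200.3, 148, 198, 235 and 376 in Notch3 -/- and 137, 143, 395 and 118 in Notch3 +/- brain cells. In aorta it read 23.6, 19.7 and 20.7 in Notch3 -/- and 112, 9.82 and 25.1 in Notch3 +/- arrays. Array 5556 came close to the lowest brain array, H, without reaching it, so brain and aorta did not overlap. Brain was higher by 2.67 in Notch3 -/- (SE 0.24, 6.36-fold, limma adjusted p = 3.56e-06) and by 1.90 in Notch3 +/- arrays (SE 0.53, 3.72-fold, adjusted p = 0.0226). Without 5556 the Notch3 +/- difference was 2.55 (adjusted p = 0.00322). The Notch3 +/- call was lost without brain replicate I (adjusted p = 0.0535), aorta 5561 (0.104) or aorta 6166 (0.0845). The second probe set of Nefl gave log2 3.12 in Notch3 -/- and 2.43 in Notch3 +/- arrays (limma adjusted p = 3.73e-06 and 0.00861).

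Stmn2, a stathmin of growing axons that takes microtubules apart, separated the tissues least. It read 106, 114, 137, 107 and 115 in Notch3 -/- and 125, 127, 184 and 102 in Notch3 +/- brain cells, against 80.2, 66.9 and 57.0 in Notch3 -/- and 167, 62.6 and 84.3 in Notch3 +/- aorta. In Notch3 +/- arrays 5556 lay above brain replicates E, G and H, and in Notch3 -/- arrays all brain values were higher. The difference was 0.65 in Notch3 -/- (SE 0.16, 1.57-fold, limma adjusted p = 0.00737) and 0.39 in Notch3 +/- arrays (SE 0.30, adjusted p = 0.378, 95% interval -0.27 to 1.05). Without 5556 it was 0.73 in Notch3 +/- arrays and still did not pass (adjusted p = 0.0882). Its second probe set was higher in brain in both (log2 0.91 and 0.80, adjusted p = 0.0096 and 0.0395 in Notch3 -/- and +/- arrays).

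Gad1 and Rbfox3 mark inhibitory neurons and mature neuronal nuclei. Gad1, an enzyme that makes the transmitter GABA, was dim throughout: 39.1, 35.2, 33.7, 34.2 and 45.3 in Notch3 -/- and 22.7, 23.7, 64.2 and 38.2 in Notch3 +/- brain cells, and 3.04, 6.10 and 3.97 in Notch3 -/- and 3.70, 5.39 and 5.85 in Notch3 +/- aorta. All brain values were above all aorta values, by 1.39 in Notch3 -/- (SE 0.19, limma adjusted p = 0.000101) and 1.28 in Notch3 +/- arrays (SE 0.29, adjusted p = 0.0074). Its second probe set went to the other side, at -0.32 and -0.36 in Notch3 -/- and +/- arrays, and passed in neither (adjusted p = 0.306 and 0.169). In Notch3 +/- arrays all its brain values (4.28 to 11.3) lay below all its aorta values (13.5 to 15.4). As the mean of both probe sets, Gad1 did not pass in Notch3 +/- arrays (log2 0.46, limma adjusted p = 0.144).

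Rbfox3, the splicing regulator detected by the NeuN antibody, read 270.3, 292, 164, 226 and 358 in Notch3 -/- and 127, 134, 406 and 339.9 in Notch3 +/- brain cells. In aorta it stayed between 19.1 and 38.9, with 34.3, 19.1 and 38.7 in Notch3 -/- and 32.7, 38.9 and 33.3 in Notch3 +/- arrays, and 5556 was not apart. Brain was higher by 2.56 in Notch3 -/- (SE 0.24, 5.89-fold, limma adjusted p = 4.24e-06) and by 2.23 in Notch3 +/- arrays (SE 0.38, 4.68-fold, adjusted p = 0.00133). Neither of its other 2 probe sets passed.

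Across the 8 genes, all 8 passed 5% in Notch3 -/- arrays and 5 in Notch3 +/- arrays, each time higher in brain (limma, Benjamini-Hochberg over 45037 probe sets). Tissue differences were common: 37.8% of all probe sets passed in Notch3 -/- and 28.5% in Notch3 +/- arrays, and 20.3% and 14.6% passed as higher in brain, with 17.5% and 13.9% as lower. By probe set, 13 of 22 passed in Notch3 -/- and 8 of 22 in Notch3 +/- arrays, none of them lower. The brightest probe sets were picked over 15 arrays, 9 of them brain, which favours probe sets high in brain. The shares over all probe sets carry no such pick. Of the 14 other probe sets of these genes, 5 passed in Notch3 -/- and 3 in Notch3 +/- arrays (median differences 0.50 and 0.58). Brain lay wholly above aorta for 8 genes in Notch3 -/- and 5 in Notch3 +/- arrays, against 22.1% and 20.9% of all probe sets. It lay wholly below aorta at 1 of the 22 probe sets in Notch3 +/- arrays, the second of Gad1. The median difference of the 8 was 2.17 in Notch3 -/- and 1.44 in Notch3 +/- arrays, and 0.09 and 0.10 over all probe sets. Without 5556, 7 of the 8 passed in Notch3 +/- arrays, where 9719 of 45037 probe sets passed, 4915 of them as higher in brain. The Notch3 -/- and Notch3 +/- comparisons share no array.

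**Figure D2:**
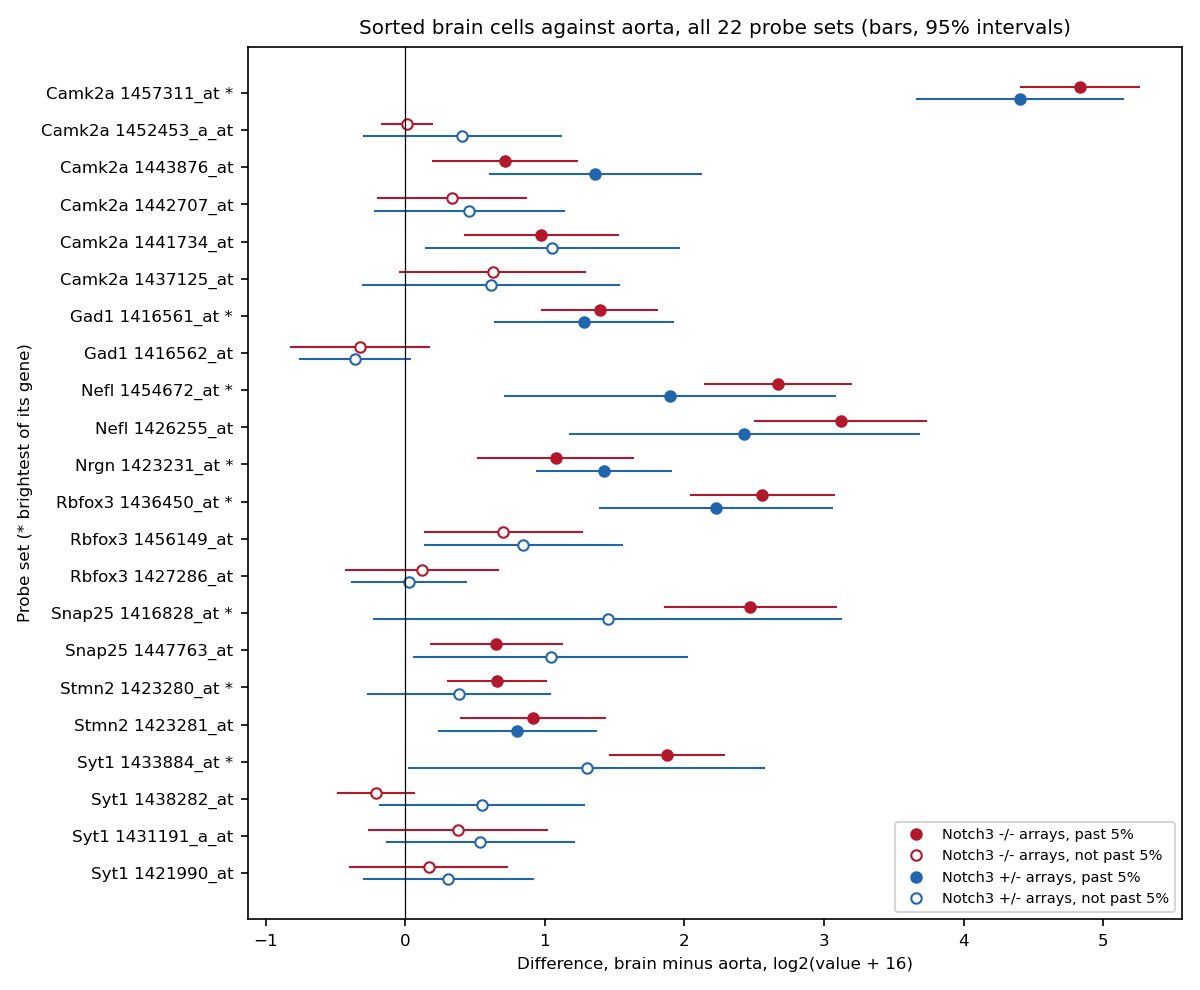
Difference between brain and aorta on the log2(value + 16) scale for all 22 probe sets, in Notch3 -/- arrays (upper mark) and Notch3 +/- arrays (lower mark); bars are 95% intervals and filled marks passed 5%. Camk2a at its brightest probe set stands farthest right (4.83 and 4.41), and the Notch3 +/- intervals of Snap25, Syt1 and Stmn2 are wide or near 0.

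Other neuronal genes showed the same split less evenly. Of 98 genes in 6 lists of neuronal function, 86 had a probe set of 1 symbol, and 50 passed as higher and 8 as lower in brain in Notch3 -/- arrays (median difference 0.97), against 34 and 6 in Notch3 +/- arrays (0.70). Without 5556 the Notch3 +/- counts were again 34 and 6 (0.81), where 4915 and 4804 of 45037 probe sets passed as such. Among genes of presynaptic release, 10 of 18 were higher and 1 lower in Notch3 -/- arrays, and 9 higher and 0 lower in Notch3 +/- arrays. Those higher were led by the complexin Cplx1 (log2 4.64 and 4.03, or 4.79 without 5556) and the active-zone protein Rims1 (3.34 and 2.93). Of 16 excitatory synapse genes, 8 were higher and 1 lower in Notch3 -/- arrays, and 6 higher and 1 lower in Notch3 +/- arrays. Their median differences were 0.51 and 0.27. Among the higher ones were Rasgrf1, an exchange factor for Ras (4.22 and 3.78), and the glutamate receptor subunit Gria1 (2.56 and 2.10). Of 12 genes of inhibitory neurons, 9 and 3 were higher and 0 lower in Notch3 -/- and +/- arrays, the calcium-binding proteins Calb1 (1.63 and 1.57) and Pvalb (1.42 and 1.56) among the higher.

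The axonal transport motor Kif5a differed most among 15 cytoskeletal genes (log2 6.77 in Notch3 -/- and 6.32 in Notch3 +/- arrays), of which 10 and 9 were higher and 2 lower in each. The tubulin-binding Stmn1 followed (4.33 and 3.84). Of 14 RNA-binding and identity genes, 7 were higher and 3 lower in Notch3 -/- arrays, where 20.3% and 17.5% of all probe sets passed as such. In Notch3 +/- arrays 3 were higher and 2 lower, where 14.6% and 13.9% of all probe sets were. The RNA-binding protein Celf4 was higher in brain (3.31 and 3.06). Rest, in this list as a repressor of neuronal genes outside neurons, was lower (-1.79 and -1.94, chosen after its values were seen). Excitability genes had 6 of 11 higher and 1 lower in Notch3 -/- and 4 higher and 1 lower in Notch3 +/- arrays. Of the 11, Cdk5r1 differed most between tissues in Notch3 +/- arrays, as higher in brain. The sodium channel Scn2a came next and was the lower one (-2.11 and -1.73). Of 13 peripheral and sympathetic neuron genes, 4 were higher in Notch3 -/- arrays and 1 in Notch3 +/- arrays, Ddc (4.70 and 3.71), which makes dopamine and serotonin. Without 5556, 4 of the 13 were higher in Notch3 +/- arrays, where 4915 of 45037 probe sets were, and Ddc was at 4.70.

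None of the 8 genes passed between genotypes in brain cells. At their brightest probe sets the differences between Notch3 -/- and Notch3 +/- brain cells ran between -0.17 for Stmn2 and 0.31 for Nefl, with a median of 0.03 and limma adjusted p between 0.871 and 1.0. No probe set of the 22 passed, where 0.0400% of all probe sets did (18 of 45037). None of the 22 separated the genotypes without overlap, as 2.47% of all probe sets did. Camk2a averaged 556 ± 129 in Notch3 -/- and 599.8 ± 288 in Notch3 +/- cells (SD, n = 5 and 4; log2 -0.03, 95% interval -0.60 to 0.55). Snap25 averaged 105 ± 38.7 and 125 ± 98.3 in the same order (interval -0.88 to 0.88). Among the 8 genes the interval was narrowest for Stmn2, at 0.676- to 1.17-fold. It reached down to 0.543-fold for Snap25 and up to 1.99-fold for Nefl.

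A single probe set of the 22 had an unadjusted p under 0.05 in brain, the dim 1438282_at of Syt1, against 3434 of 45037 overall. It read 0.827, 1.58, 1.85, 1.39 and 3.01 in Notch3 -/- and 8.77, 1.26, 13.2 and 37.8 in Notch3 +/- cells (log2 -0.69, SE 0.25, limma adjusted p = 0.559). Replicate H alone was above 13.2, and replicate G lay among the Notch3 -/- values. The brightest probe set of Syt1 averaged 190.3 ± 38.4 in Notch3 -/- and 201 ± 72.4 in Notch3 +/- cells and did not pass (log2 -0.03). None of the 86 genes of the 6 neuronal lists passed in brain either, with a median of 0.04 and a smallest limma adjusted p of 0.467 (6 had an unadjusted p under 0.05).

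In aorta no gene of the 8 passed between the genotypes, and no probe set passed over the whole array (limma; 2058 of 45037 had an unadjusted p under 0.05, none of the 22). Notch3 itself did not pass there (log2 -1.78, SE 0.19, limma adjusted p = 0.661), though its Notch3 -/- values lay below all Notch3 +/- values. A missing call in aorta therefore does not show that a gene was unchanged. The 22 probe sets also overlapped between genotypes, where 9.49% of all probe sets did not. Snap25 averaged 5.29 ± 4.78 in Notch3 -/- and 54.2 ± 84.6 in Notch3 +/- aorta (SD, n = 3 each; log2 -1.02, SE 0.74). Syt1 averaged 40.0 ± 9.32 and 109.8 ± 138 (log2 -0.61), and Nefl 21.3 ± 2.01 and 49.1 ± 55.3 (-0.46). In each of these the Notch3 +/- SD exceeded the mean, with 5556 as the single high value. The median of the 8 differences was -0.45, and -0.06 without 5556, when Snap25 was at -0.03, Syt1 at 0.27, Nefl at 0.19 and Stmn2 at -0.09. The difference of the genotype effects between brain and aorta passed for none of the 8 (smallest unadjusted p = 0.227), where 0.00888% of all probe sets passed.

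**Figure D3:**
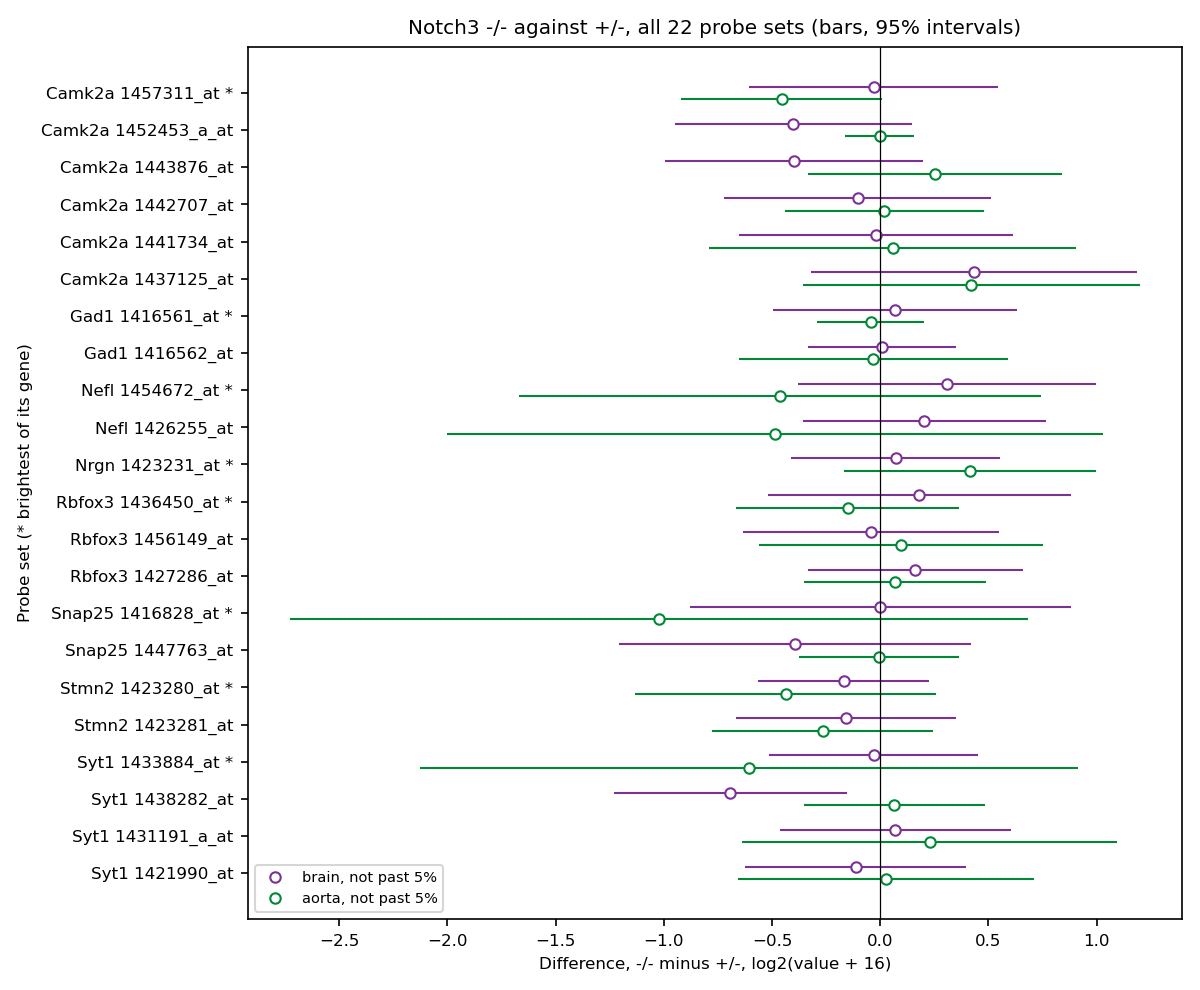
Difference between Notch3 -/- and Notch3 +/- arrays on the log2(value + 16) scale for all 22 probe sets, brain above and aorta below in each pair, with 95% intervals. No mark passed 5%, and the widest intervals are those of Snap25, Syt1 and Nefl in aorta.

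Within the brain sort the 8 genes varied between arrays of 1 genotype. Replicate I (Notch3 +/-) was highest of the 9 arrays for 7 of them, all but Nrgn, which peaked in F (Notch3 -/-). Replicate E (Notch3 +/-) was lowest for 5. Among Notch3 +/- arrays the highest value was 7.39 times the lowest for Snap25, 3.34 times for Nefl, 3.20 times for Rbfox3 and 2.96 times for Camk2a. The mean log2 value of the 8 genes lay between 7.26 (C) and 7.90 (F) in Notch3 -/- and between 6.98 (E) and 8.24 (I) in Notch3 +/- cells. Replicate I also held the highest value of 31 of the 86 other neuronal genes (36.0%) and of 19.2% of all probe sets.

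Most of the 8 went up and down together over the 9 brain arrays. With each gene centred on its genotype mean, Pearson's r of the 28 pairs ran between -0.12 (Nrgn and Stmn2) and 0.95 (Snap25 and Syt1), with a median of 0.75, and 27 were positive. The 5 lowest all involved Stmn2. Pairs share their arrays, so these describe 9 libraries and carry no test. Among 12007 other genes, those most like the mean of the 8 were Kif5a (r = 0.98), the neuronal calcium sensor Hpcal4 (0.98), the secreted protein of some inhibitory neurons Reln (0.97), Rtn2 (0.96) and the postsynaptic scaffold Homer2 (0.96). Kif5a read 2731, 2863, 2065, 3503 and 5493 in Notch3 -/- and 1614, 2964, 10176 and 4089 in Notch3 +/- brain cells, again highest in I and lowest in E.

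By single member, Camk2a was most like Hpcal4 (r = 0.98) and Nrsn1 (0.97), Gad1 like the vesicle protein Syngr1 (0.97) and Lonrf2 (0.96), and Rbfox3 like Pla1a (0.98) and Celf4 (0.97). Snap25 was nearest to Pmm1 and Rundc3a (0.97 each), Syt1 to Tbc1d10a (0.97) and Ddx21 (0.96), Nefl to Serhl (0.97) and Srr (0.95), and Nrgn to Ppfia4 (0.95) and Bpifb9b (0.94). Stmn2 was nearest to Epc1 (0.97) and the myelin gene Cldn11 (0.96). These r are the highest of 12007 genes over 9 arrays, so they are high by choice, and 7 of the 8 members peaked in replicate I. Not all of these genes were higher in brain. Rtn2 read 42.3 to 161 in brain and 128 to 173 in aorta, and Ddx21 74.6 to 176 and 277 to 330. Hpcal4 was higher in brain, at 209 to 1337 and 1.18 to 51.8.

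Markers of other brain cells moved over the same arrays. Replicate E was also lowest for the mean of 12 astrocyte genes (9.78, and up to 11.03 in D), of 11 oligodendrocyte genes (8.83, and up to 9.59 in C) and of 11 endothelial genes (10.26, and up to 10.59 in I). It was not lowest for the pericyte and smooth muscle list (10.69, with A at 10.18) or the microglia and macrophage list (7.44, with B at 7.18). Nor was it for the Schwann list (7.13, with A at 7.11), and over the 86 other neuronal genes G was as low as E (6.81 each). Summed intensities of the astrocyte list ran between 37129 and 53667 in Notch3 -/- and between 23934 and 50081 in Notch3 +/- cells. The oligodendrocyte list summed to 35596 to 49746 in Notch3 -/- and 31688 to 44411 in Notch3 +/- cells, and the 8 neuronal genes to 1282 to 2291 and 1104 to 2886. Pericyte and smooth muscle genes summed to 42304 to 51151 in Notch3 -/- and 56059 to 97528 in Notch3 +/- cells, and of these 14 genes only Tagln, an actin-binding protein of smooth muscle, passed between genotypes (log2 -1.56, limma adjusted p = 0.0497). No marker of the astrocyte, oligodendrocyte or endothelial lists passed. Their part in the spread of the neuronal genes was not tested.

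**Figure D4:**
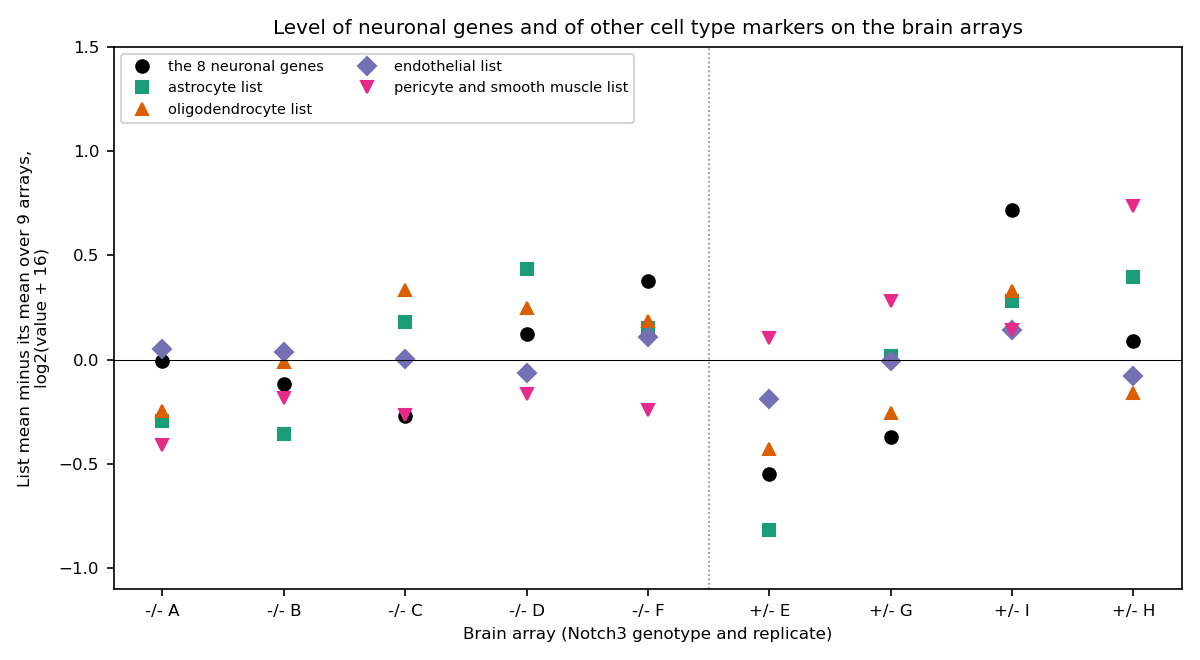
Mean log2(value + 16) of the 8 neuronal genes and of 4 marker lists on each brain array, as the difference from the mean over the 9 arrays, with Notch3 -/- arrays left of Notch3 +/- arrays. The 8 genes are highest in I and lowest in E. Replicate E is also lowest for the astrocyte, oligodendrocyte and endothelial lists, and A for the pericyte and smooth muscle list.

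In aorta, 4 of the 8 genes were highest in Notch3 +/- replicate 5556, whose value is given here against the range of the other 5 aorta arrays. Snap25 was at 152 against 0.542 to 10.1 and Syt1 at 269 against 25.4 to 46.8. Nefl was at 112 against 9.82 to 25.1, with its second probe set at 93.1 against 0.535 to 20.0. Stmn2 was at 167 against 57.0 to 84.3, and its second probe set at 53.9 against 27.7 to 39.9. For Camk2a, Nrgn, Gad1 and Rbfox3 the brightest probe set peaked on another aorta array. At those 4 genes 5556 lay within the range of the other 5 arrays, although a pair of dim Camk2a probe sets peaked in it (47.7 against 8.06 to 38.1 for 1441734_at; 26.4 against 14.1 to 23.6 for 1442707_at).

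Sympathetic neuron genes were high on the same array. Of 13 peripheral and sympathetic neuron genes 12 had their highest aorta value in 5556 (92.3%), where 20.5% of all probe sets did. For Scn10a (12.5 against 1.32 to 11.7) and Prph (51.2 against 39.2 to 47.2) the margin was small. Ddc was at 369 against 27.5 to 37.9. Th, the rate-limiting enzyme of catecholamine synthesis, was at 123 against 17.7 to 40.1, and Dbh, which turns dopamine into noradrenaline, at 157 against 37.1 to 67.7. The vesicular monoamine transporter Slc18a2 was at 53.7 against 1.43 to 12.0.

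Other lists differed in how many genes peaked there. In 5556 the highest aorta value fell for 15 of 18 presynaptic, 11 of 15 cytoskeletal, 8 of 14 RNA-binding, 6 of 11 excitability and 5 of 12 inhibitory neuron genes, and for 3 of 16 excitatory synapse genes. Any margin counts here. It was small for Thy1 (324.6 against 214.2 to 323.6), Vamp2 (249 against 183 to 244) and Calb1 (29.17 against 13.66 to 29.15). For Stmn3 it was wide (346 against 29.7 to 67.3). The neuropeptide Npy, in the inhibitory list but also made by sympathetic neurons, was at 459 against 8.50 to 74.0. Among glial lists, 5 of 10 Schwann, 4 of 11 oligodendrocyte and 3 of 12 astrocyte genes peaked in 5556, with Fabp7 at 137 against 2.65 to 16.3 and Mbp at 371 against 56.1 to 66.4. Of vascular markers, 1 of 11 endothelial and 1 of 14 pericyte and smooth muscle genes did. Summed, the sympathetic list reached 1311 in 5556 and 335 to 374 in the other 2 Notch3 +/- arrays, and lay between 275 and 436 in Notch3 -/- aorta. Th, Dbh, Slc18a2 and Prph, and Thy1, Vamp2, Calb1 and Stmn3 for their margins, were chosen after their values were seen. One array carries this pattern, so it has no replicate, and its part in the aorta comparisons beyond the values given without it was not tested.

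**Figure D5:**
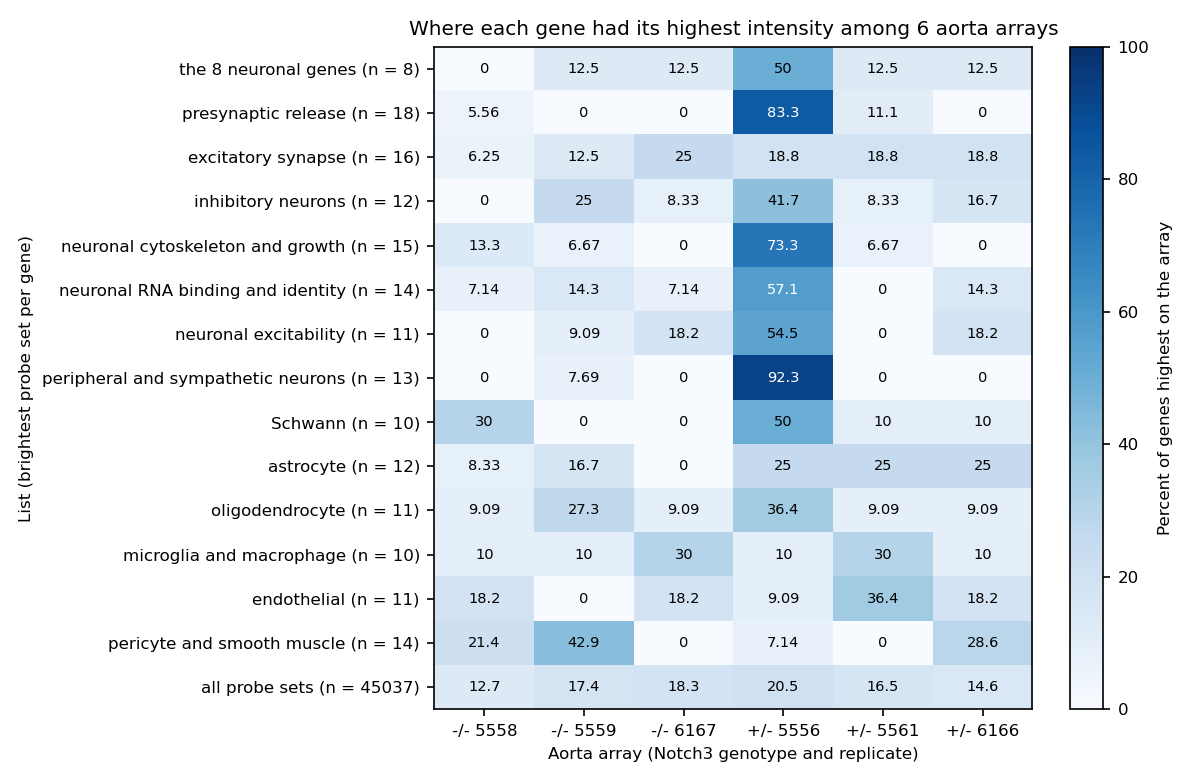
Percent of genes of each list (brightest probe set per gene) whose highest aorta intensity fell on each of the 6 aorta arrays, with Notch3 -/- arrays left of Notch3 +/- arrays. Array 5556 holds 92.3% of the peripheral and sympathetic list, 83.3% of the presynaptic list and 50% of the 8 genes, against 20.5% of all probe sets.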

How the data were processed

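RNA of sorted brain cells (9 arrays) and aorta explants (6 arrays) was hybridised to Affymetrix arrays (15 µg of cRNA on each). What the authors deposited is a linear intensity per probe set, scaled to a target of 150 on every array, per the labels' design text. The sources used here name neither the method that summarised probes nor a genome build, and with no detection calls at hand, low intensities cannot be told from background. The platform annotation gave 34958 of 45101 probe sets a single gene symbol, 932 more than one and 9211 none. Older symbols were replaced by matching Entrez identifiers to RefSeq (34754 matched, 204 kept the older symbol).

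From the deposited intensity, log2(value + 16) was computed, 64 control probe sets were left out, and the other 45037 were all tested, dim ones included, by two-sided moderated tests in limma 3.58.1 (R 4.3.3; lmFit and eBayes, intensity trend on, Benjamini-Hochberg at 5%). Groups came from the sample titles. In all, 5 comparisons were fitted: Notch3 -/- against +/- in brain and in aorta, the difference between these, and brain against aorta within each genotype. The fits were tested on simulated data. The genes and lists were chosen with earlier results of these data known. From each list, up to 4 genes could be named. At most 2 had the smallest p between genotypes in brain, and at most 2 the largest tissue difference in Notch3 +/- arrays. Not all of these are named, and those from the neuronal lists were mostly taken by tissue difference. Rgs5, Pdgfrb and Cldn5 were added as markers that check the labels, and any other gene chosen otherwise is stated in the text. The lists were presynaptic release, excitatory synapse, inhibitory neurons, neuronal cytoskeleton and growth, neuronal RNA binding and identity, neuronal excitability, peripheral and sympathetic neurons, astrocyte, oligodendrocyte, Schwann, microglia and macrophage, endothelial, and pericyte and smooth muscle. Of 10 microglia and macrophage genes, none passed between genotypes, 2 were higher and 3 lower in brain than in aorta in Notch3 -/- arrays, and 2 higher and 4 lower in Notch3 +/- arrays. Alternatives were other pseudocounts, a brightness filter, quantile normalization, no trend, array weights, all arrays in 1 fit, gene means, the aorta name series as a block, and leaving out each array. The number of arrays limits the precision.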

Additional observations from a re-analysis of the deposited data

Results flagged for a closer look

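Each brain genotype group was checked at all 22 probe sets (44 checks) for a highest or lowest array whose gap to the next exceeds Dixon's limit for its group size. Chance alone gives about 1 in 20 such groups, and aorta groups of 3 were not checked. All 3 that exceeded it were in Notch3 +/- brain cells. Nefl at its brightest probe set was highest in replicate I at 395. Camk2a probe set 1443876_at was lowest in replicate E at 29.0, and Camk2a probe set 1452453_a_at was highest in replicate H at 31.9.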

How the results depend on the processing

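No paired analysis was possible because the replicate names are not shared between groups. The comparison of brain and aorta in Notch3 -/- arrays kept the direction and side of the 5% threshold for all 8 genes in all 127 gene-by-setting results. In Notch3 +/- arrays 112 of 119 did so, 4 lost the call (Nefl without I, 5561 or 6166, and Gad1 as gene means) and 3 gained it. Sizes moved most for Camk2a, over 1.25 (gene means) to 6.90 (pseudocount of 1) in Notch3 -/- and over 1.38 to 5.69 in Notch3 +/- arrays, with the same settings at the ends. None of the 8 genes passed between genotypes in either tissue, or for the difference, under any setting. Among uncalled genes signs turned in 22 of 135 results in brain (6 genes, with Snap25 ranging over -0.40 to 0.41), 6 of 115 in aorta and 6 of 175 for the difference. All but 1 of the turns in brain were within the SE. Those that moved by more than the SE were these. Camk2a in brain ranged over -0.26 to 0.25 across left-out arrays (0.25 without I), and in aorta was 0.049 as gene means. Without 5556, Syt1 in aorta was 0.27 (range -1.12 to 0.27) and Nefl 0.19 (-0.96 to 0.19). For the difference between tissues, Camk2a was -0.14 and Syt1 -0.12 as gene means, and without 5556 Syt1 was -0.30 (-0.30 to 1.09) and Stmn2 -0.080 (-0.080 to 0.53). The causes of these shifts were not tested. List counts without 5556 were added after seeing the data. Over all probe sets, 18 passed between genotypes in brain, against 32 with the filter (fewer probe sets tested), 10 without the trend, 95 with all 15 arrays in 1 fit, 8 as gene means, and 4 to 16 with an array left out. In aorta 2 passed with all 15 arrays in 1 fit, against 0. Between tissues, gene means gave 9862 calls in Notch3 -/- and 7372 in Notch3 +/- arrays, against 17023 and 12821 probe sets. For the difference, 4 passed, against 2 with a pseudocount of 1, 0 without the trend (1909 at an unadjusted p under 0.05, limma), 1 as gene means, and 0 to 6 with an array left out. The brightness filter kept 3 of the 8 genes in aorta and 7 in brain.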
